A study of Papio hamadryas with 14 samples.

Results

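Claudins, occludin and the junction scaffold ZO-1 were followed in baboon (Papio hamadryas) whole kidney from early gestation to adulthood. The set holds every probe set whose platform annotation gives 1 gene symbol that is CLDN1, CLDN3, CLDN4, CLDN5, CLDN7, CLDN8, CLDN10, CLDN16, OCLN or TJP1. It came to 10 probe sets of 8 genes, of 16143 probe sets and 9580 genes in all. CLDN3 and TJP1 have 2 probe sets each, and CLDN4 and CLDN16 are not analysed here. The earliest fetal kidneys came from day 60 of gestation (60dG, with 2 arrays). Later fetal kidneys, with 3 arrays per stage, came from 90dG, 125dG and 160dG. Adult kidneys came from animals of 6, 12 and 7 years (replicates 1, 2 and 3). The labels name no treatment or genotype and call the fetal replicates biological. The arrays were human Affymetrix designs, so baboon sequence differences can lower a signal. Where a probe set is ranked among all probe sets, the rank describes its signal and not the level of its transcript. The same 10 probe sets are on the fetal and the adult array type.

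Tight junctions seal the space between neighbouring epithelial cells and set which ions pass through it. Claudins are the membrane proteins that form the seal or its pores, occludin is a second membrane component, and ZO-1, the product of TJP1, ties both to actin. In the kidney each tubule segment carries its own mix of claudins, so that the proximal tubule is leaky and the collecting duct is tight.

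LRP2, the proximal tubule receptor megalin and 1 of 8 measured markers of that segment, had a mean signal of 4821 in adults and 803 at 60dG. The median signal per array was 210.0 to 214.1 in adult and 172.9 to 194.3 in fetal kidneys. The small number of arrays per stage limits the precision. A few arrays stood apart. The summed signal of 5 adrenal gland markers of 7 listed was 7579 on 60dG replicate 2, against 165.7 to 323.8 on the other fetal arrays. The summed signal of the 5 skeletal muscle markers was 8700 on adult replicate 3, against 500.0 and 565 on the other adult arrays. The GAPDH control probes at the 3' and 5' ends give a ratio that rises as RNA degrades, here called the GAPDH ratio. It was 1.78, 2.46 and 3.43 on 90dG replicates 1, 2 and 3, and at most 1.99 on the other fetal arrays. Values with these arrays left out are given for many of the results that use them, but not for all.

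Over the 4 fetal stages, 2 of the 10 probe sets differed (limma moderated F over 16143 probe sets, Benjamini-Hochberg adjusted p under 0.05), those of CLDN10 and 1 of the 2 of TJP1. The same test called 8.00% of all probe sets, and 13.2% of those brighter than the median level (a signal of 177), where both lie. In 160dG against 60dG kidneys 1 of 10 was called, CLDN10, and the background was 4.83% of all probe sets. The 2 groups lay apart, higher at 160dG, on 5 of 10 (17.3% of all) and lower on 1 (17.5% of all). The mean difference was above 0 on 7 of 10, and on 50.1% of all. In 90dG against 60dG kidneys 0 of 10 were called in limma, with a background of 3.86% called. An unadjusted p under 0.05 was found for 2 of 10, and for 19.1% of all probe sets. The 90dG arrays lay wholly above the 60dG arrays on 3 of 10 (17.5% of all) and wholly below on 1 (16.9% of all). In 125dG against 90dG kidneys 1 of 10 was called, TJP1, against 2.34% of all, and the groups lay apart on 2 of 10, 1 in each direction (22.7% of all). In 160dG against 125dG kidneys 0 of 10 were called in limma, while 0.0310% of all probe sets were called. An unadjusted p under 0.05 was found for 2 of 10, and for 6.28% of all. Groups lay apart on 1 of 10 (12.9% of all). The median difference between 160dG and 60dG was 0.27 over the 10 probe sets and 0.00131 over all probe sets, on the scale of log2(signal + 16) on which every difference here is given. This scale understates changes of dim probe sets.

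**Figure D1:**
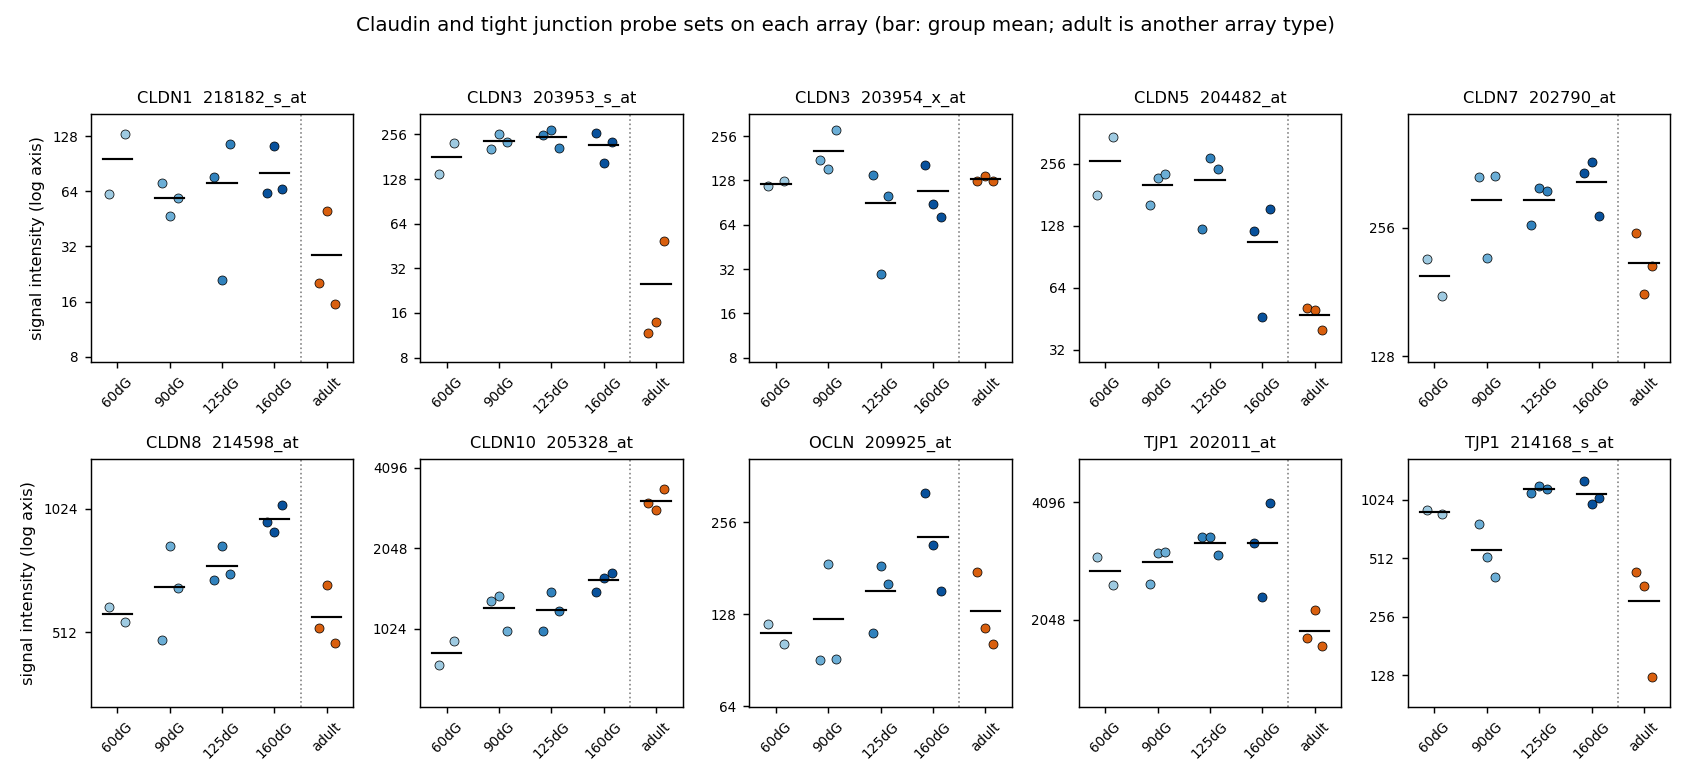
Signal intensity (log axis) of each of the 10 claudin and tight junction probe sets on each of the 14 arrays, by stage, with 1 point per array and a bar at the group mean. CLDN10 is highest in adults, at 3086 on average, whereas CLDN3 (203953_s_at) averages 24.9 in adults against 218 at 160dG.

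CLDN10, which forms paracellular pores and has separate isoforms for anions and cations along the nephron, was the claudin that differed in the fetal kidney, and it rose in 160dG against 60dG kidneys. Its signal was 744.5 and 919 at 60dG, 1302, 1356 and 1001 at 90dG, 1005, 1407 and 1186 at 125dG, 1399.9, 1588 and 1659.5 at 160dG, and 3011, 2842 and 3406 in adults. All 160dG arrays lay above both 60dG arrays, and all adult arrays lay above every fetal array. CLDN10 averaged 1549 ± 134 at 160dG (SD, n = 3) and 832 ± 124 at 60dG (SD, n = 2), a log2 difference of 0.89 ± 0.19 (SE), 1.85-fold (limma, adjusted p = 0.0127). Over all 4 stages the adjusted p was 0.0441 (limma F). Which CLDN10 isoform the probe set reads was not analysed here.

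None of the successive steps of CLDN10 passed. In 90dG against 60dG kidneys the difference was 0.54 ± 0.19 (SE; limma, adjusted p = 0.132), with the groups apart. In 125dG against 90dG kidneys it was -0.03 ± 0.17 (SE), and in 160dG against 125dG kidneys 0.37 ± 0.17 (SE; limma, adjusted p = 0.774). With 60dG replicate 2, the array with adrenal gland transcripts, left out, the difference between 160dG and 60dG was 1.04 (limma, adjusted p = 0.0361). Without 60dG replicate 1 it was 0.74 and the call was lost (adjusted p = 0.179). The call over the 4 stages was lost without 60dG replicate 1 (limma F, adjusted p = 0.217) or 2 (0.0836), 90dG replicate 2 (0.0664), 125dG replicate 3 (0.0630) or 160dG replicate 1 (0.0623), 2 (0.10) or 3 (0.106).

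Several genes of the tubule epithelium also rose. In bulk tissue, fewer cells of a type and less RNA per cell cannot be told apart. In 160dG against 60dG kidneys EPCAM, an adhesion protein of epithelial cells, differed by 1.00 ± 0.20 (SE; limma, adjusted p = 0.00932). CDH16, the kidney-specific cadherin, differed by 2.62 ± 0.30 (SE; adjusted p = 0.000129). Of the 13 measured epithelial genes of 15 listed, these 2 were called higher and 0 lower in limma. Over the stages 5 had an unadjusted p under 0.05 (limma F), as did 23.8% of all probe sets. Of 8 measured proximal tubule markers 6 were called higher, among them AQP1 (3.09 ± 0.22, SE) and GATM (3.46 ± 0.53, SE). Of 5 thick ascending limb markers 2 were, PTGER3 (2.16 ± 0.26, SE) and SLC12A1 (1.60 ± 0.27, SE). Of 10 cell cycle genes 7 were called lower and 0 higher. In this comparison 4.83% of all probe sets were called, in either direction. The summed signal of the epithelial list was 5580 to 6510 at 160dG and 4022 to 4169 at 60dG. Within it EPCAM averaged 2426 at 160dG and 1190 at 60dG, and CDH16 884 and 131. The median difference over the list was 0.27. KRT8 (-0.24), KRT19 (-0.76), ST14 (-0.30) and SPINT2 (-0.31) had negative differences that were not called. The part of the epithelial genes in the CLDN10 difference was not tested. When 60dG replicate 2 was left out, EPCAM differed by 1.05 and lost its call (limma, adjusted p = 0.0556), and the other 5 genes named here kept theirs.

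CLDN8 and CLDN7 belong to the distal nephron and collecting duct, where CLDN8 contributes to the seal and to chloride passage. CLDN8 read 591 and 541 at 60dG, 489.9, 832 and 657 at 90dG, 687, 831 and 708 at 125dG, 952, 901 and 1045 at 160dG, and 524, 666 and 480.5 in adults. All 160dG arrays lay above every earlier array and every adult array. CLDN8 averaged 966 ± 72.9 at 160dG (SD, n = 3) and 566 ± 35.6 at 60dG (SD, n = 2). The log2 difference was 0.75 ± 0.20 (SE), 1.69-fold, with a 95% confidence interval of 0.31 to 1.19, and it missed the threshold (limma, adjusted p = 0.0510). It passed in 9 of 22 alternative settings, at an adjusted p of 0.0166 to 0.243 over all of them. With 60dG replicate 2 left out it was 0.69 (limma, adjusted p = 0.243). With all 90dG arrays left out it was called (limma, adjusted p = 0.0166), and likewise without 90dG replicate 1 (0.0172) or 2 (0.0348). Over the 4 stages the adjusted p was 0.0897 (limma F), and it was 0.0466 without 90dG replicate 1.

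CLDN7 read 217 and 178 at 60dG, 337, 218 and 338.5 at 90dG, 260.3, 318 and 313 at 125dG, 344, 365.5 and 273 at 160dG, and 249.5, 179 and 209 in adults. The 60dG arrays lay below all later fetal arrays and overlapped with the adults. The log2 difference between 160dG and 60dG was 0.68 ± 0.25 (SE; limma, adjusted p = 0.161), with an interval of 0.14 to 1.22, and 0.55 with 60dG replicate 2 left out (adjusted p = 0.504). Other collecting duct genes covered a wider range. Of 5 measured markers of 9 listed, 3 differed over the stages (8.00% of all probe sets). Of these, 2 were called higher at 160dG than at 60dG (4.83% of all called, in either direction). They were HSD11B2, the enzyme that inactivates cortisol (3.29 ± 0.41, SE), and the sodium channel subunit SCNN1A (1.83 ± 0.30, SE). Both kept their calls with 60dG replicate 2 left out, at 3.15 (limma, adjusted p = 0.00645) and 1.54 (0.0417). The third, the transcription factor GATA3, differed over the stages (limma F, adjusted p = 0.0213), and its difference between 160dG and 60dG was -0.65 ± 0.18 (SE; adjusted p = 0.0521).

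**Figure D2:**
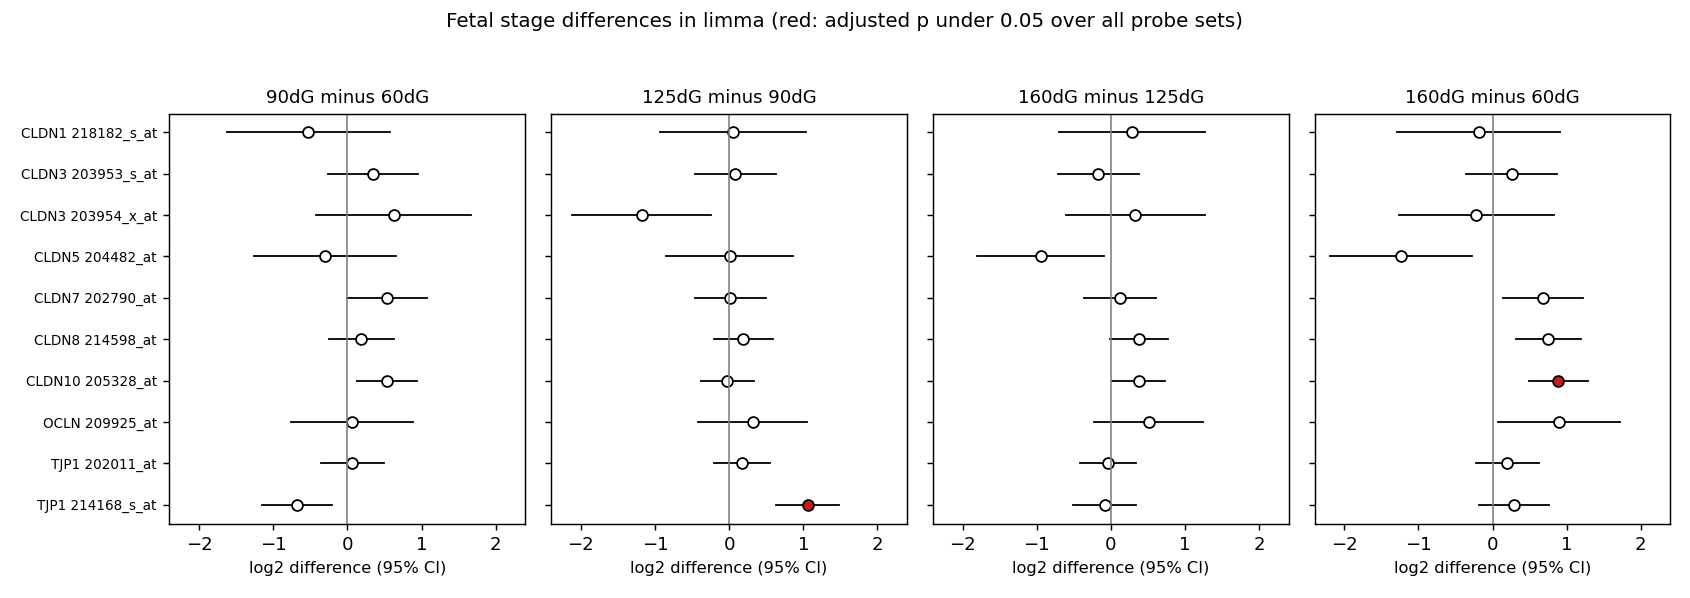
Log2 difference of each probe set for the 3 successive fetal steps and for 160dG minus 60dG, with lines for the 95% confidence interval of the limma fit and red points for adjusted p under 0.05. The red points are TJP1 (214168_s_at) in the step from 90dG, at 1.06, and CLDN10 for 160dG minus 60dG, at 0.89.

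CLDN3 and CLDN1 are sealing claudins, CLDN1 being known in the kidney for the parietal cells of Bowman's capsule. The brighter CLDN3 probe set, 203953_s_at, read 138 and 225 at 60dG, 206, 256.5 and 227 at 90dG, 253.5, 273 and 208 at 125dG, 262, 163 and 228 at 160dG, and 11.8, 13.8 and 49.2 in adults. Fetal groups overlapped throughout, whereas every adult array lay below every fetal array. The log2 difference between 160dG and 60dG was 0.26 ± 0.28 (SE), with an interval of -0.35 to 0.87 (limma, adjusted p = 0.743). It was 0.58 with 60dG replicate 2 left out. The second probe set, 203954_x_at, whose suffix marks probes that may also bind other transcripts, read 118 and 126 at 60dG, 175, 153 and 281 at 90dG, 139.9, 29.5 and 101 at 125dG, 162, 88.8 and 72.8 at 160dG, and 128, 136 and 127 in adults. Its adult values lay inside its fetal range, so the 2 probe sets of CLDN3 disagree on the adult kidney. Their fetal values had a Pearson correlation of -0.06 over 11 arrays.

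For 203954_x_at, the 125dG arrays all lay below the 90dG arrays, at a log2 difference of -1.18 ± 0.44 (SE; limma, adjusted p = 0.16). With 90dG replicates 2 and 3 left out, an alternative chosen after seeing the data, it was -1.02 (adjusted p = 0.475). The summed signal of 2 urothelial markers of 6 listed was also high at 90dG, at 520.6 to 979, against 254 to 366 on the other fetal arrays, and its part was not tested. CLDN1 was dim, brighter on average than 22.3% of probe sets, and below the array median on all 11 fetal arrays. It read 61.9 and 131 at 60dG, 71.6, 47.0 and 58.7 at 90dG, 76.8, 21.1 and 117 at 125dG, 62.5, 113.5 and 65.9 at 160dG, and 20.3, 49.9 and 15.5 in adults. All fetal groups overlapped. The log2 difference between 160dG and 60dG was -0.19 ± 0.51 (SE), with an interval of -1.29 to 0.91 (limma, adjusted p = 0.919). It changed sign, to 0.27, with 60dG replicate 2 left out.

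CLDN5 is the claudin of endothelium and is also made by podocytes. It read 180.2 and 345 at 60dG, 162, 218 and 227 at 90dG, 123, 274 and 240.2 at 125dG, 121, 45.8 and 154 at 160dG, and 50.7, 49.9 and 39.9 in adults. All 160dG arrays lay below both 60dG arrays. The mean was 107 ± 55.5 at 160dG (SD, n = 3) and 262.5 ± 116 at 60dG (SD, n = 2). The log2 difference of -1.24 ± 0.45 (SE) was the widest among the 10 probe sets in the 4 fetal comparisons, and it did not pass (limma, adjusted p = 0.152). Its interval was -2.20 to -0.28. Single arrays of both stages moved it, to -1.68 when 60dG replicate 1 was left out (limma, adjusted p = 0.191), to -0.80 when 60dG replicate 2 was (0.606), and likewise to -0.80 when 160dG replicate 2, with a signal of 45.8, was (0.369).

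The endothelial markers were measured beside CLDN5. Of the 9, 1 was called higher and 0 lower at 160dG than at 60dG in limma (4.83% of all, in either direction). The median difference was 0.51 over the list. Over the stages 4 had an unadjusted p under 0.05 (limma F), as did 23.8% of all probe sets. The 1 called was the vascular growth factor receptor FLT1 (2.12 ± 0.46, SE; limma, adjusted p = 0.0151), which differed by 3.06 when 60dG replicate 2 was left out (adjusted p = 0.00172). The endothelial cadherin CDH5 differed by 0.18 ± 0.17 (SE; adjusted p = 0.684) and PECAM1 by 0.71 ± 0.23 (SE; adjusted p = 0.0994). CLDN5 thus had a negative difference where the median of these markers was positive, and the difference between them was not tested.

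OCLN encodes occludin, a membrane protein of tight junctions that spans the bilayer beside the claudins. It read 119 and 103 at 60dG, 90.9, 188 and 91.1 at 90dG, 111, 185 and 160.4 at 125dG, 319, 217 and 152 at 160dG, and 176.5, 115 and 102.5 in adults. The 160dG arrays lay above both 60dG arrays and overlapped with every other group. The mean was 229 ± 84.0 at 160dG (SD, n = 3) and 111 ± 11.8 at 60dG (SD, n = 2). The log2 difference was 0.90 ± 0.38 (SE), as large as that of CLDN10, but with an interval of 0.08 to 1.72 (limma, adjusted p = 0.244). With 60dG replicate 2 left out it was 0.80 (adjusted p = 0.540). OCLN was below the array median on 8 of 11 fetal arrays, and its residual SD was 0.43 on the log2 scale, against 0.21 for CLDN10 and a median of 0.36 over all probe sets.

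TJP1 encodes ZO-1, which also stands at the podocyte slit diaphragm. Its brighter probe set, 202011_at, read 2961 and 2514 at 60dG, 2535, 3033 and 3049 at 90dG, 3331, 3332 and 3003 at 125dG, 3223, 2349 and 4078 at 160dG, and 1839, 2170.2 and 1749 in adults. Successive fetal stages overlapped, and the adults lay below every fetal array. The log2 difference between 160dG and 60dG was 0.20 ± 0.20 (SE), with an interval of -0.22 to 0.62 (limma, adjusted p = 0.704). This probe set was brighter than 97.7% of all on average.

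The second TJP1 probe set, 214168_s_at, had a minimum at 90dG among the fetal stages. It read 909 and 866.5 at 60dG, 768, 517 and 409.8 at 90dG, 1106, 1203 and 1158 at 125dG, 1280.0, 969 and 1046 at 160dG, and 435, 366 and 125 in adults. The 90dG arrays lay below all other fetal arrays. In 125dG against 90dG kidneys the signal was 1156 ± 48.6 and 565 ± 184 (SD, n = 3 each), a log2 difference of 1.06 ± 0.20 (SE; limma, adjusted p = 0.0189), with the groups apart. In 90dG against 60dG kidneys the difference was -0.68 ± 0.22 (SE; adjusted p = 0.103), and in 160dG against 60dG kidneys 0.29 ± 0.22 (SE; adjusted p = 0.582). When 90dG replicate 1 was left out, the difference between 90dG and 60dG was -0.92 and was called (limma, adjusted p = 0.0109). It was -0.29 with the GAPDH ratio as a covariate (adjusted p = 0.420) and -0.20 with 90dG replicates 2 and 3 left out (0.673). Both steps share the 90dG arrays. Over the stages the adjusted p was 0.0132 (limma F).

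The 90dG arrays with the lowest signal of this probe set were those with the highest GAPDH ratio. The signal was 768, 517 and 409.8 at ratios of 1.78, 2.46 and 3.43. With the GAPDH ratio as a covariate, the difference between 125dG and 90dG was 0.67 and not called (limma, adjusted p = 0.0816), and over the stages the adjusted p was 0.0624. Without both 90dG replicates 2 and 3, chosen after seeing the data, it was 0.58 (adjusted p = 0.198). The step lost its call when any 1 of 90dG replicates 2 (limma, adjusted p = 0.0526) and 3 (0.0628) or 125dG replicates 1 (0.0686), 2 (0.0584) and 3 (0.0774) was left out. The call over the stages was lost without 90dG replicate 2 (limma F, adjusted p = 0.0596) or 3 (0.0507). The first TJP1 probe set read 2535, 3033 and 3049 on the same 3 arrays, with no dip, and its difference between 125dG and 90dG was 0.17 ± 0.18 (SE). RNA integrity and stage cannot be told apart on 90dG replicates 2 and 3.

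**Figure D3:**
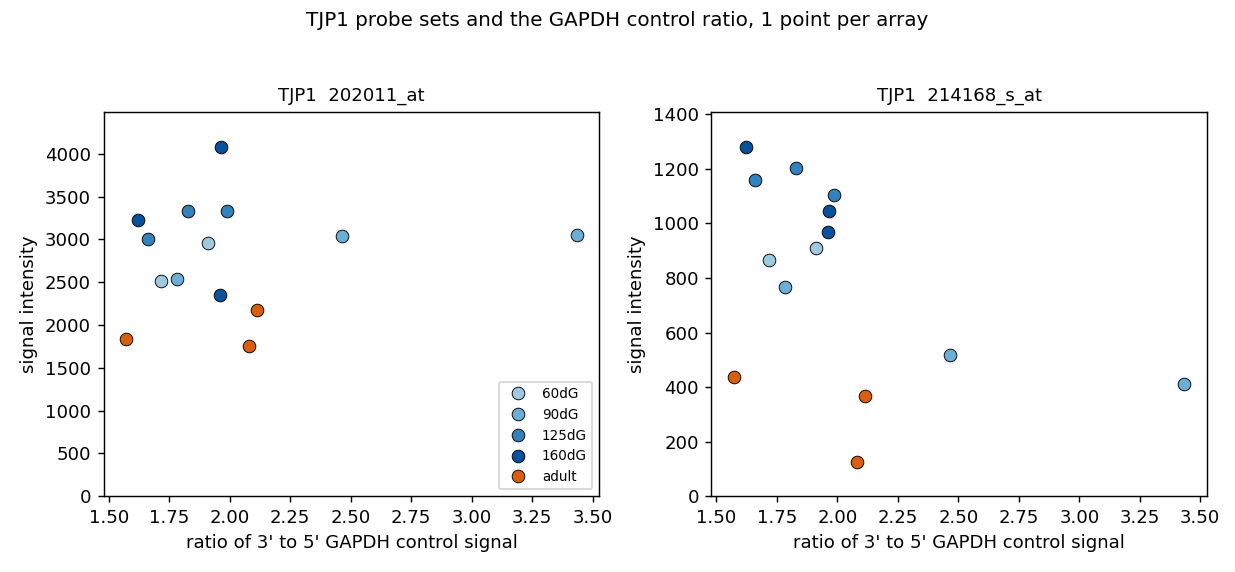
Signal intensity of the 2 TJP1 probe sets (linear axes from 0) against the GAPDH ratio, with 1 point per array. On 214168_s_at the 90dG arrays with ratios of 2.46 and 3.43 read 517 and 409.8, whereas on 202011_at they read 3033 and 3049.

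In adult against 160dG kidneys the arrays are of different types, so age and array type cannot be told apart, and no test was made. The median difference over all probe sets was 0.11, and over the 10 probe sets -0.75. On 6 of the 10 the adult arrays all lay below the 160dG arrays, as for 21.0% of all probe sets, and on 1 they all lay above, as for 28.1%. At least 2-fold as well were 3 lower (background 9.82%) and 0 higher (background 13.3%). The 3 lower probe sets were those of CLDN1, CLDN3 (203953_s_at) and TJP1 (214168_s_at). CLDN1 differed by -1.16, but by -0.94 without adult replicate 3, the array with skeletal muscle transcripts, by -0.92 without 160dG replicate 2 and by -0.64 with a pseudocount of 64. It was then under 2-fold, and the count of 3 became 2 without adult replicate 3 or with that pseudocount.

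CLDN10 was the probe set that was higher, with a mean of 3086 ± 290 in adults and 1549 ± 134 at 160dG (SD, n = 3 each), a log2 difference of 0.99. With each array centred on its median it was 0.83, with quantile normalization over all arrays 1.25, and without adult replicate 3 0.91. CLDN3 (203953_s_at) had the most negative difference, with a mean of 24.9 ± 21.0 in adults and 218 ± 50.3 at 160dG (SD, n = 3 each), a log2 difference of -2.61. It was -3.34 with a pseudocount of 1 and -1.67 with 64, since the adult signals are near the pseudocount used. Without adult replicate 3 it was -3.00. Of all probe sets, 0.626% had a lower difference. TJP1 differed by -1.93 on 214168_s_at and by -0.71 on 202011_at, so both probe sets were lower in adults, by unequal amounts. Without adult replicate 3 these differences were -1.41 and -0.65. The adult GAPDH ratios were 1.57, 2.11 and 2.08 for replicates 1, 2 and 3, where 214168_s_at read 435, 366 and 125.

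CLDN8 averaged 557 ± 97.0 in adults and 966 ± 72.9 at 160dG (SD, n = 3 each), a log2 difference of -0.79 with no overlap. CLDN7 averaged 212 ± 35.5 in adults and 327 ± 48.4 at 160dG, a difference of -0.59 with no overlap. CLDN5 averaged 46.8 ± 6.02 in adults and 107 ± 55.5 at 160dG, a difference of -0.85. OCLN averaged 131 ± 39.5 and 229 ± 84.0, a difference of -0.71. Both pairs of groups overlapped, for CLDN5 only through 160dG replicate 2, at 45.8. Without that array the CLDN5 difference was -1.29. Of the 9 endothelial markers 2 were at least 2-fold lower in adults without overlap, CDH5, with a mean of 181 against 621 at 160dG, and TIE1, with 54.0 against 507, while PECAM1 averaged 769.9 against 786. These were named after their values were seen, and their part in the CLDN5 difference was not tested. EPCAM read 878 in adults against 2426 at 160dG, a log2 difference of -1.44, and CDH16 read 703 against 884, with overlap. Of the 13 measured epithelial genes, 4 were at least 2-fold lower in adults without overlap (9.82% of all probe sets). The same rule gave 2 higher (13.3% of all), ELF3 at 1.12 and SPINT2 at 1.06. Without adult replicate 3 the differences were -0.69 for CLDN8, -0.58 for CLDN7, -0.77 for CLDN5 and -0.57 for OCLN. The direction of each of the 10 differences was kept under the median centring and under quantile normalization.

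**Figure D4:**
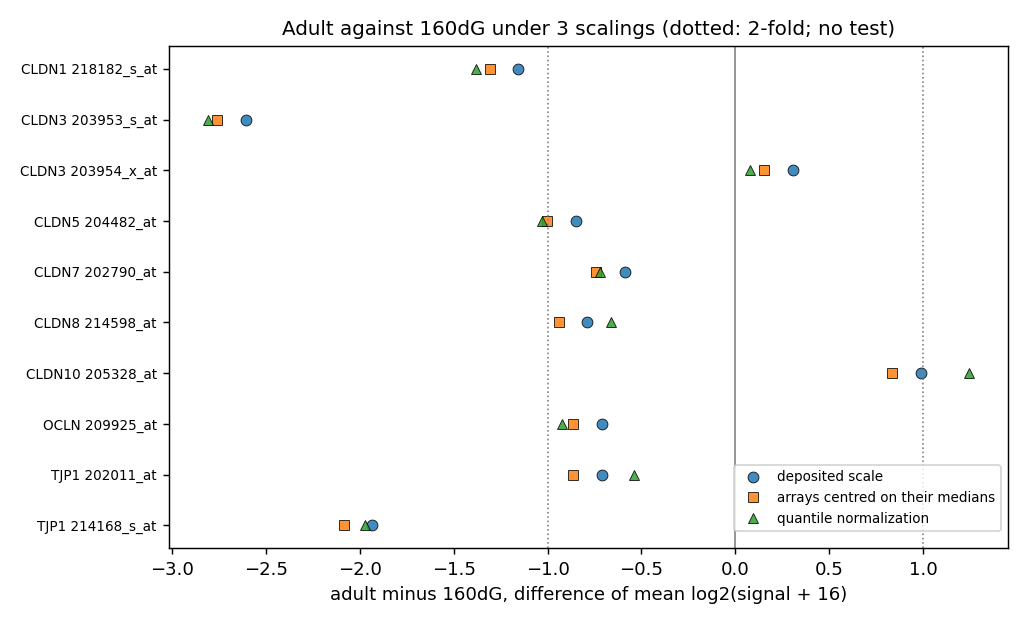
Difference of mean log2(signal + 16) between adult and 160dG kidneys for each probe set, under the deposited scale, centring of arrays on their medians and quantile normalization over the 14 arrays, with dotted lines at 2-fold. CLDN10 lies to the right of 0 and CLDN3 (203953_s_at) farthest to the left, at -2.61 on the deposited scale.

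Other junction genes were looked at from lists, which were chosen with earlier results of these data known. Counts use the brightest probe set of each gene. Of 12 other claudins listed, 5 were measured, and 0 were called over the fetal stages in limma. An unadjusted p under 0.05 was found for 1, and for 23.8% of all probe sets (limma F). The closest to the threshold was CLDN15, a claudin known for sodium pores in the gut, with mean signals of 283, 243, 501 and 427 from 60dG to 160dG (limma F, adjusted p = 0.0713) and 720 in adults. Of 18 other junction membrane and plaque proteins, 8 were measured, and 0 were called in limma. Of these 8, 2 had an unadjusted p under 0.05, beside the same 23.8% of all. Among these the adhesion molecule JAM2 averaged 369 at 160dG and 213 at 60dG, a log2 difference of 0.75 ± 0.22 (SE; adjusted p = 0.0670). In adults PATJ, a scaffold of the apical Crumbs complex, averaged 21.7, against 160.2 at 160dG, on its brighter probe set, and 42.8 against 23.2 on its dimmer one. CLDN15 and PATJ were named here after their values were seen, as was JAM2.

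Of the cell polarity genes 12 of 14 were measured. By their brightest probe sets 3 differed over the stages (8.00% of all probe sets), PARD6B, LIN7C and CDC42. PARD6B, a partner of atypical protein kinase C, averaged 88.1, 40.6, 175 and 196 from 60dG to 160dG, and LIN7C, an adaptor of the Crumbs complex, averaged 459.9, 155, 520.1 and 556. Both had their lowest mean at 90dG, like the second TJP1 probe set. LIN7C read 230.1, 141 and 94.0 on the 90dG arrays, falling as the GAPDH ratio rose, whereas PARD6B read 37.6, 44.8 and 39.3. In 125dG against 90dG kidneys PARD6B differed by 1.70 ± 0.32 (SE; limma, adjusted p = 0.0189) and LIN7C by 1.71 ± 0.35 (SE; adjusted p = 0.0262). With the GAPDH ratio as a covariate they were 1.81 (adjusted p = 0.0641) and 1.11 (0.153). With 90dG replicates 2 and 3 left out they were 1.77 (adjusted p = 0.0927) and 1.11 (0.275), so neither was called. A second LIN7C probe set went the other way, at -1.40 ± 0.37 (SE; adjusted p = 0.0619). The brightest probe set of the small GTPase CDC42 had its lowest mean at 160dG, 1986 against 3366 at 60dG, a difference of -0.80 ± 0.26 (SE; adjusted p = 0.104). The 3 other CDC42 probe sets had their lowest means at earlier stages, differed by 0.31, -0.12 and -0.01, and were not called over the stages. A dimmer probe set of DLG1, a scaffold of the basolateral Scribble complex, was also called (limma F, adjusted p = 0.0145), as seen when all probe sets of the list were read. It averaged 110.2, 27.3, 128 and 149 from 60dG to 160dG, while the brightest DLG1 probe set was not called (0.572). Its difference between 125dG and 90dG was 1.74 ± 0.36 (SE; limma, adjusted p = 0.0270), 1.70 with the GAPDH covariate (0.102) and 2.10 without 90dG replicates 2 and 3 (0.0832).

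The genes with the fetal pattern most like CLDN10 were SLC44A4, a choline transporter family member (Pearson r = 0.92), the complement component C7 (0.91) and the transcription factor BHLHE40 (0.90), over 11 arrays and 7189 probe sets with 1 symbol and a mean above the median level. Between 160dG and 60dG they differed by 0.93, 2.02 and 1.63 on the log2 scale. For the brighter TJP1 probe set, which was not itself called over the stages, they were ESD, an esterase (0.91), C6orf120 (0.87) and FAM117A (0.84). These likenesses rest on the same 11 arrays and are descriptions.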

How the data were processed

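RNA was isolated from baboon kidney with Trizol and biotin-labelled, per the labels' protocols. The deposited signal intensities are linear and came from GCOS, per the submitters' processing notes. How GCOS computed and scaled them, and its version, is not given in the sources used here. Each table holds 16186 probe sets, 43 of them controls. Of the others 14068 have 1 gene symbol, 735 have several and 1340 have none, and only those with 1 symbol were named. The 2% trimmed means ran from 330.0 to 334 on adult and from 344 to 352 on fetal arrays, so no rescaling was done.

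The log2 values are not the authors': the deposited intensities were transformed as log2(signal + 16). All 16143 non-control probe sets were fitted over the 11 fetal arrays with limma 3.58.1 in R 4.3.3 (lmFit, eBayes with an intensity trend), and p-values were Benjamini-Hochberg adjusted over all of them. Errors are SD of signals or SE of the fit, and confidence intervals are at 95%, unadjusted. Adult arrays entered no test. The fit was checked on simulated data. By rule, named genes were all members, up to 4 called genes per list by size of difference, and, for each member gene with a called probe set, the 3 genes most correlated with its brightest probe set, called or not. CLDN15, JAM2, PATJ, CDH5, TIE1, PECAM1 and DLG1 fall outside it and were chosen after their values were seen. KRT8, KRT19, ST14, SPINT2 and ELF3 also fall outside it and were named for the direction of their differences. Members and lists were chosen with earlier results of these data known. Alternatives were other pseudocounts (1, 64), a filter that kept probe sets above the median level, quantile normalization, no trend, array weights, a replicate block, 1 probe set per gene, the GAPDH ratio as a covariate, and leaving out the 90dG group or single arrays. Figures were drawn with matplotlib 3.10.9.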

Additional observations from a re-analysis of the deposited data

How the results depend on the processing

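Of 10 probe sets, 2 were called over the fetal stages, and 0 without an intensity trend. Only 1, CLDN10, was called with 1 probe set per gene (8 tested, with 214168_s_at not among them), without the 90dG group and with the GAPDH covariate. Without both 90dG replicates 2 and 3, which leaves 1 array at 90dG, neither CLDN10 nor TJP1 kept its call over the stages. For 160dG against 60dG the count of 1 became 0 without an intensity trend and 2, with CLDN8 added, with the filter, quantile normalization, array weights, 1 probe set per gene, the GAPDH covariate, without the 90dG group and without both 90dG replicates. For 90dG against 60dG the count of 0 became 1 with array weights. For 125dG against 90dG the count of 1 became 0 without a trend, with 1 probe set per gene, with the GAPDH covariate and without both 90dG replicates. Leaving out single arrays gave 0 to 3 over the stages (3 without 90dG replicate 1, with CLDN8 added), 0 to 2 for 160dG against 60dG, 0 to 1 for 90dG against 60dG and 0 to 1 for 125dG against 90dG. With the replicate block, these counts were 2, 1, 0 and 1. Across stages, deviations of same-numbered arrays from their stage means correlated at -0.04 to 0.10, and 1 of 15 pairs was over 0.1. Arrays with other numbers gave -0.10 to 0.09, with 0 of 30 pairs over 0.1. Deviations sum to 0 within each stage of 2 or 3 arrays, so these values cannot decide whether replicate numbers pair the arrays. No called difference changed sign under these settings. Over all probe sets, the 1292 called over the stages became 515 to 1776, the 779 for 160dG against 60dG 315 to 986, the 623 for 90dG against 60dG 61 to 1053, the 377 for 125dG against 90dG 28 to 994, and the 5 for 160dG against 125dG 0 to 28. For adult against 160dG the count of 3 was 2 to 4 over all settings. The causes were not tested.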
